A study of Mus musculus with 8 samples.

Results

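The 8 single-nucleus RNA sequencing libraries of the study fell into a low-depth and a high-depth set, and the gene classes that separate the 2 sets are described here. Libraries were ranked by their total of unique molecular identifiers (UMIs, each standing for 1 captured RNA molecule), and the 4 lowest, 1 from each surgical group, were set against the 4 highest. All 8 libraries are members, with 22065 nuclei in the low-depth set and 26403 in the high-depth set, of 48468 in all. The low-depth set held control 1 (28118725 UMIs), BCAS 1 (30279401), BCAS+TBI 2 (31397920) and TBI 1 (33363564). The high-depth set held BCAS+TBI 1 (42651388 UMIs), control 2 (49569645), TBI 2 (50626451) and BCAS 2 (56135192). TBI 1 and BCAS+TBI 1 are the neighbours on either side of the boundary. The totals chose the sets, so totals, UMIs and genes per barcode are given as a description, and the main tests concern composition after thinning at random, of each nucleus to a fixed depth where shares and numbers per nucleus are compared and otherwise of every library to the 27074872 UMIs of the smallest.

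The tissue was a cube of 2 mm of forebrain next to the lesion, frozen and processed to nuclei. The mice were male, of the Swiss Webster stock and 10 weeks old. The groups, 2 libraries each, were control mice and mice given BCAS surgery (an abbreviation that the labels do not spell out and that the study's title ties to cerebral hypoperfusion), TBI surgery (traumatic brain injury) or both. No transgene or allele is named, no time between surgery and collection is given, and whether a library holds 1 mouse or a pool is not stated, so the replicates are libraries. Because each group has 1 library in each set, the sets can be compared within groups.

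RNA in a nucleus is mostly unspliced precursor and RNA that is kept there, such as Malat1, while spliced messengers of ribosomal proteins, ferritin or the respiratory chain lie mainly in the cytoplasm, and mitochondrial transcripts lie inside mitochondria. A nuclear preparation also carries some cytoplasmic RNA, attached to nuclei or free in the suspension. Very long neuronal genes, whose introns give many captured fragments, are prominent in the nuclear part. Shares of mitochondrial and ribosomal messengers are commonly read in such data as measures of the cytoplasmic part.

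The median barcode of the low-depth libraries, before thinning, had between 3276 and 3829.5 UMIs, from 1864 to 2073 genes, and that of the high-depth libraries between 5462 and 6409 UMIs, from 2537 to 2810.0 genes. Barcodes with over 5% mitochondrial UMIs made up 7.66% to 20.2% of the low-depth and 3.34% to 6.64% of the high-depth libraries, with no overlap, and were removed first. Any 2 libraries shared 5 to 20 barcode sequences, at most 0.321% of the smaller, and none was taken as a shared nucleus. A number opens the name of each library's files, and the sources used here do not say what it stands for. It is 16 in all 4 high-depth libraries. In the low-depth set it is 15 in control 1 and BCAS 1, 17 in BCAS+TBI 2 and 16 in TBI 1. Both TBI libraries thus share a number, and for the other groups this number and the set cannot be told apart. Kept nuclei with at least 3 UMIs of the pan-neuronal genes Snap25, Rbfox3 and Syt1 were counted as neurons, 65.6% to 79.0% per library after thinning. The rest, here called other nuclei, mix glia, vascular cells and shallow neurons. Thinning moved nuclei below the gate mainly in the high-depth set. There other nuclei numbered 1729, 2248, 1599 and 1617 in control, BCAS, TBI and BCAS+TBI, against 1584, 1813, 1263 and 1502 as deposited. In the low-depth set they numbered 1723, 1413, 1845 and 1487, against 1723, 1395, 1813 and 1481 as deposited. Markers of forebrain excitatory and inhibitory neurons, astrocytes, oligodendrocytes and microglia were all detected in every library.

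Most genes measured in neurons differed between the sets. Of 22677 genes tested in neurons, 13660 (60.2%) passed an adjusted p of 0.05 in edgeR with the group as a further term, 7261 (32.0%) higher in the low-depth and 6399 (28.2%) higher in the high-depth libraries. In other nuclei, 4445 of 15793 (28.1%) passed, 2512 (15.9%) and 1933 (12.2%) in the same order. Leaving out either library of a group removes that group's comparison, and the count in other nuclei then fell to between 1457 and 1700 without a BCAS or a BCAS+TBI library. Levels are given below in CPM, UMI counts scaled to the same total over the nuclei of that kind, and differences as log2 of low-depth over high-depth after TMM normalization. The median of all genes was then 0.036 in neurons and near 0 in other nuclei. TMM factors themselves separated the sets in neurons (1.06 to 1.09 in the low-depth and 0.918 to 0.942 in the high-depth libraries). With plain totals instead, the median in neurons was 0.23 and the calls divided into 9627 higher in low-depth and 3700 higher in high-depth libraries, so differences in neurons smaller than that shift can change sign with the scaling.

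Messengers of the cytosolic ribosomal proteins, the structural parts of the translating ribosome, were higher in the low-depth libraries in both kinds of nuclei. In neurons they made up 0.401, 0.420, 0.489 and 0.579% of UMIs in the low-depth libraries of control, BCAS, TBI and BCAS+TBI, and 0.177, 0.144, 0.159 and 0.156% in the high-depth libraries of the same groups, the order used for every run of 4 values below. All 4 low-depth libraries were above all 4 high-depth ones, with a ratio of 2.27, 2.92, 3.08 and 3.71 within the 4 groups. The third ratio is that of the TBI pair, whose libraries share the opening number. Of 78 genes, 77 were higher in low-depth neurons and 1 was lower, with a median log2 difference of 1.36 against 0.036 for all genes tested. Rplp0, a protein of the stalk that recruits elongation factors, had 22.3, 23.5, 25.1 and 28.9 CPM in low-depth and 6.42, 5.56, 5.59 and 6.17 CPM in high-depth neurons (log2 difference 1.87, SE 0.096, adjusted p = 1.76e-05). The exception was Rpl26 (chr11:68901583-68906989, + strand), another large-subunit protein, with 5.32, 4.35, 5.99 and 5.60 CPM against 13.7, 10.2, 11.6 and 12.1 CPM (log2 difference -1.36, SE 0.10, adjusted p = 2.28e-05). Ribosomal protein genes have many processed copies in the genome, and how reads shared with those copies were counted is not given in the sources used here. Other nuclei had 0.811, 0.963, 1.39 and 1.41% against 0.657, 0.442, 0.525 and 0.407% in this class. There 73 genes were higher and 1, again Rpl26 (log2 difference -2.08), was lower, with a median of 1.09. Without either BCAS+TBI library the number higher in other nuclei was 51 or 55, and without either BCAS library 57 or 54.

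The 48 abundant cytoplasmic messengers were divided less sharply. They held 0.657, 0.707, 0.651 and 0.802% of UMIs in low-depth neurons and 0.406, 0.379, 0.396 and 0.392% in high-depth neurons, and 41 of 48 were higher in the low-depth set, 2 lower, with a median of 0.82 and ratios of 1.62, 1.86, 1.64 and 2.04 within the groups. Fth1, the ferritin heavy chain that stores iron, had 323, 438, 417 and 517 CPM in low-depth and 112, 68.8, 64.9 and 80.2 CPM in high-depth neurons, which do not overlap (log2 difference 2.19, SE 0.18, adjusted p = 2.55e-05). Cst3, the secreted protease inhibitor cystatin C, had 205, 299, 164 and 240.1 CPM against 46.7, 53.6, 46.1 and 55.2 CPM (log2 difference 1.94, SE 0.091, adjusted p = 1.76e-05). The actin-binding peptide gene Tmsb4x (1.75, adjusted p = 2.46e-05) and Tpt1 (1.77, adjusted p = 2.22e-05) were also among the highest. Among the lower ones, the calcium sensor gene Vsnl1 (-0.32) spans 111 kb, and with plain totals it did not pass (log2 difference -0.12). Other nuclei had 0.918, 1.16, 1.12 and 1.22% against 0.631, 0.591, 0.647 and 0.542%, with 28 of 48 higher, 0 lower and a median of 0.67. Without a BCAS or a BCAS+TBI library 16 to 17 were higher there.

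Nuclear genes of the respiratory chain, whose messengers are translated in the cytoplasm and whose products are imported into mitochondria, were mostly higher in the low-depth set too. They held 0.357, 0.341, 0.356 and 0.432% of UMIs in low-depth and 0.196, 0.183, 0.197 and 0.188% in high-depth neurons, with ratios of 1.83, 1.87, 1.81 and 2.30 within the groups. Of 83 tested, 72 were higher in low-depth neurons and 1 lower, with a median of 0.95. Cox4i1, a subunit of cytochrome c oxidase, had 84.2, 85.8, 79.2 and 118 CPM against 24.8, 23.6, 26.0 and 23.1 CPM (log2 difference 1.69, SE 0.11, adjusted p = 1.78e-05). The 1 lower gene, Cox7b2, spans 105 kb and had 12.1, 9.51, 11.5 and 9.05 CPM against 14.2, 15.4, 15.4 and 17.7 CPM (log2 difference -0.78, SE 0.12, adjusted p = 0.000666). Among other nuclei the shares were 0.522, 0.536, 0.610 and 0.680% against 0.332, 0.302, 0.348 and 0.286%, and 63 of 81 genes were higher, 0 lower, with a median of 0.91.

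Transcripts encoded by the mitochondrial genome were higher in low-depth neurons, while in other nuclei the sets overlapped. In neurons they held 0.750, 0.954, 0.681 and 1.29% against 0.512, 0.472, 0.351 and 0.398% of UMIs, with ratios of 1.46, 2.02, 1.94 and 3.25 within the groups. Of 28 tested, 20 were higher in low-depth neurons and 0 lower (median 0.98). The large ribosomal RNA mt-Rnr2 had 3385, 4462, 3239 and 6008 CPM against 2481, 2209.8, 1680.4 and 1869.9 CPM (log2 difference 0.82, SE 0.16, adjusted p = 0.00199), and BCAS+TBI 2 was the highest library. The cytochrome oxidase messenger mt-Co3 had 91.1, 60.5, 69.3 and 96.7 CPM against 33.7, 34.6, 19.2 and 29.6 CPM (log2 difference 1.25, SE 0.15, adjusted p = 0.00015), and mt-Cytb, a subunit of the bc1 complex, differed by 0.998, adjusted p = 0.000304 (log2). In other nuclei the class held 1.35, 1.96, 1.74 and 2.25% against 1.45, 1.33, 1.16 and 1.04%, and control 1 lay below control 2. Of 15 mitochondrial genes tested there, 3 were higher in the low-depth set and 0 lower (median 0.52), mt-Rnr2 did not pass (0.47, adjusted p = 0.0997), and mt-Co3 did (1.04, adjusted p = 0.0099). That count was 12 without either control library and 0 without either BCAS+TBI library, so these pairs decide it. Without either BCAS+TBI library mt-Co3 did not pass (adjusted p = 0.0623 and 0.0553). Without either control library mt-Rnr2 passed (adjusted p = 0.0213 and 0.0184). The filter at 5% bounds these shares from above: without it the difference of the set means was 0.700 points in neurons and 2.45 points in other nuclei, in place of 0.486 and 0.580 points.

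**Figure D1:**
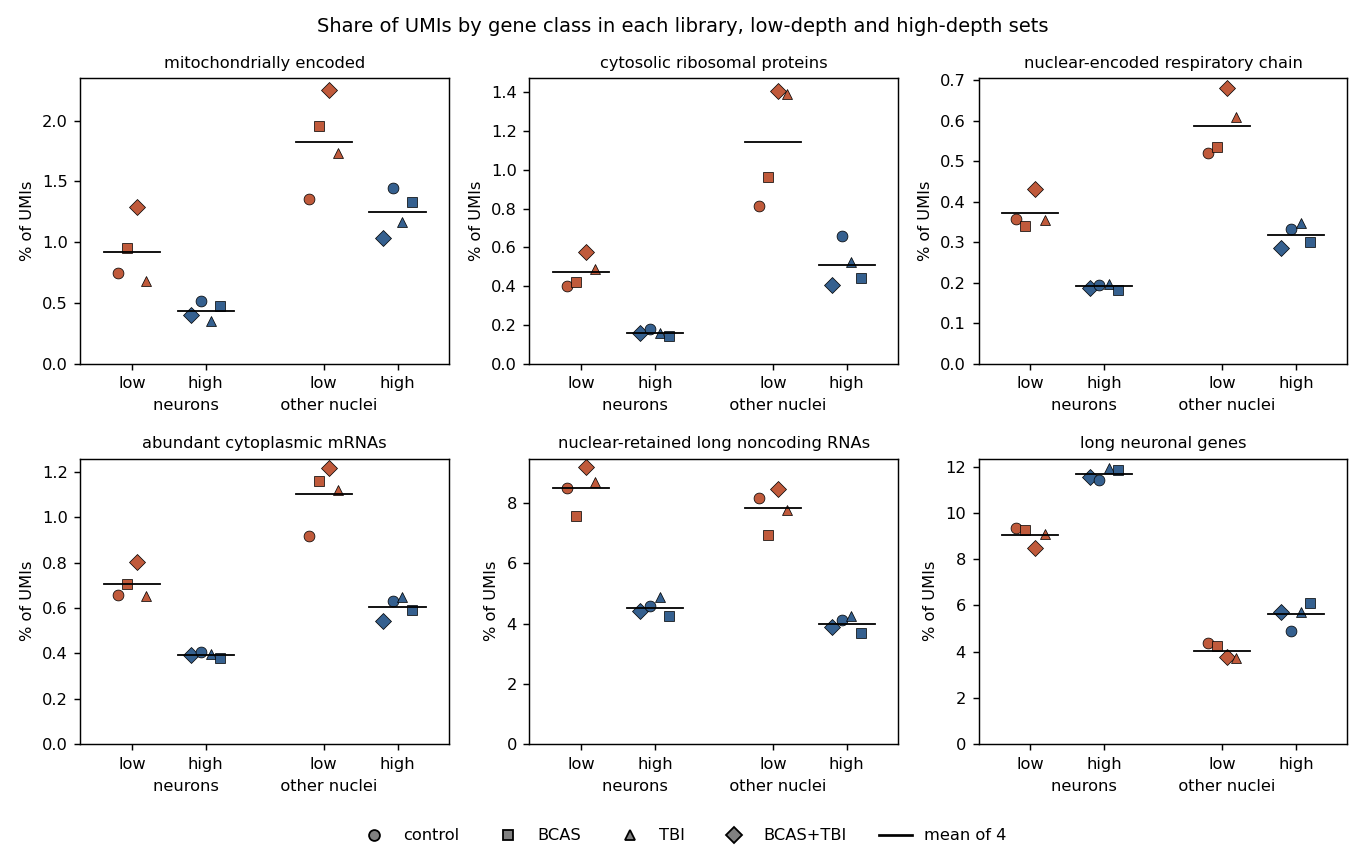
Share of UMIs (%) held by 6 gene classes in neurons and in other nuclei, 1 point per library (shape, surgical group; red, low-depth; blue, high-depth), with the mean of 4 libraries as a line. The sets do not overlap in any panel except mitochondrially encoded transcripts of other nuclei, where control 1 (1.35%) lies below control 2 (1.45%).

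The mitochondrial share also depends on the depth of the nucleus, so it was set out by UMIs per barcode as deposited. Only the mitochondrial filter was lifted for this, and the limits on UMIs and genes were kept. In every library the median share fell from the range of 500 to 1000 UMIs (1.40% to 3.39% in low-depth and 0.818% to 1.70% in high-depth libraries) to nuclei with 10000 UMIs or more (0.304% to 0.724% and 0.128% to 0.253%). At 10000 UMIs or more every low-depth library was above every high-depth one. From 5000 to 10000 UMIs the same held (0.460% to 1.25% against 0.238% to 0.435%), while in the 3 ranges below 5000 UMIs control 1 lay below control 2.

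**Figure D2:**
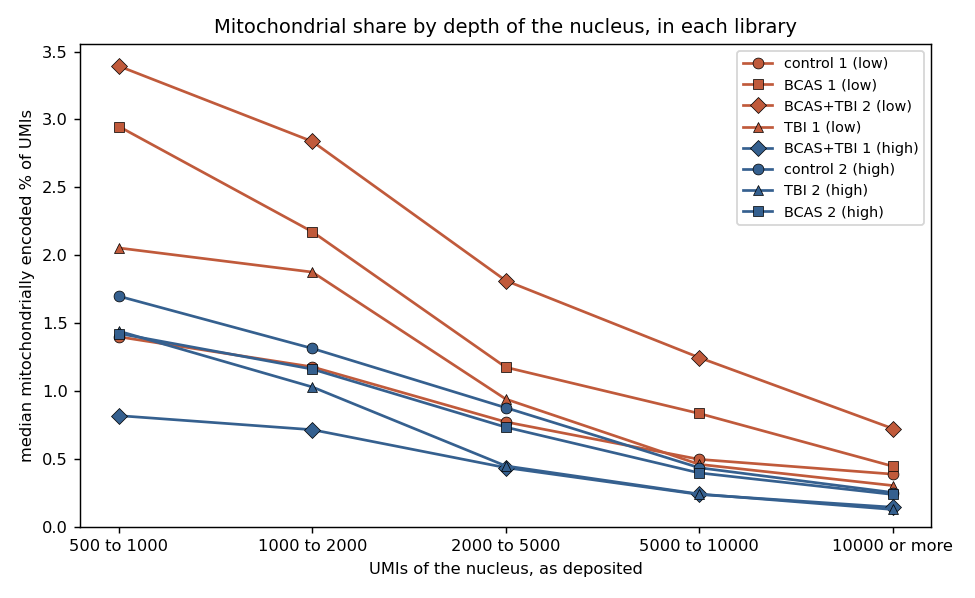
Median mitochondrially encoded share of UMIs (%) for barcodes in 5 ranges of UMIs, 1 line per library (red, low-depth; blue, high-depth). Every line falls from left to right, and the low-depth lines lie highest except that of control 1, which runs among the high-depth lines below 5000 UMIs.

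Nuclear-retained long noncoding RNAs differed in both directions. Their summed share was higher in low-depth neurons, 8.52, 7.56, 8.70 and 9.21% against 4.57, 4.24, 4.87 and 4.42%, but the sum is mostly Malat1, the abundant RNA of nuclear speckles. Malat1 (chr19:5795690-5802672, - strand) had 69975, 62007, 72569 and 77772 CPM in low-depth and 31288, 27888, 32664 and 28812 CPM in high-depth neurons (log2 difference 1.03, SE 0.062, adjusted p = 1.76e-05). In other nuclei Malat1 had 78073, 65857, 75447 and 81173 CPM against 38209.9, 32343, 36364 and 35201 CPM (log2 difference 1.04, SE 0.18, adjusted p = 0.00439). Of the 13 members, 4 were higher and 8 lower in low-depth neurons, with a median of -0.39. The count higher was 2 without either control library, either BCAS+TBI library or BCAS 2. Meg3, an imprinted RNA abundant in neurons, had 7248, 6806, 7106 and 6703 CPM against 7807, 8130.1, 8831 and 8331 CPM (log2 difference -0.45, SE 0.051, adjusted p = 0.000112). Snhg14, the 668 kb host transcript of snoRNA genes in the Prader-Willi region, had 859, 839, 879 and 758 CPM against 1134, 1124, 1130.3 and 1127 CPM (log2 difference -0.64, SE 0.045, adjusted p = 1.99e-05). The imprinted antisense RNA Kcnq1ot1 (-0.64, adjusted p = 2.7e-05) and Miat (-0.64, adjusted p = 2.26e-05) were lower too, while Neat1, the scaffold of paraspeckles, did not pass (0.31, adjusted p = 0.381; log2 difference -0.13 without either TBI library). With plain totals the count lower was 8 as well. In other nuclei 1 of 13, Malat1, was higher and 3 were lower (median -0.37). Snhg14 was among the lower (-0.89, adjusted p = 0.0099) and Meg3 was not (-0.60, adjusted p = 0.153). With counts as deposited Snhg14 did not pass in these nuclei (-0.40, adjusted p = 0.102), and Meg3 differed by 0.16. Without either BCAS library 0 members were called lower there, Snhg14 included, without a BCAS+TBI library 1 was, and without a control library 6 were, Meg3 included.

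Long neuronal genes, which encode synaptic adhesion molecules, channels and receptors across very large introns, went the other way. The 40 genes of the list held 9.35, 9.28, 9.11 and 8.51% of UMIs in low-depth and 11.4, 11.9, 11.9 and 11.6% in high-depth neurons, and 4.38, 4.23, 3.72 and 3.78% against 4.91, 6.10, 5.73 and 5.70% in other nuclei. In neurons 39 of 40 were lower in the low-depth set and 1 was higher, with a median of -0.58. The neurexin gene Nrxn3 (1612 kb) had 4037, 3967, 4194 and 3516 CPM in low-depth and 5210.2, 5456, 5489 and 5184 CPM in high-depth neurons (log2 difference -0.64, SE 0.046, adjusted p = 2.02e-05). Cntnap2 (2245 kb), a neurexin relative at the axonal juxtaparanode, had 2648, 2736, 2763 and 2279 CPM against 3494, 3599, 3619.7 and 3436 CPM (log2 difference -0.64, SE 0.046, adjusted p = 2.02e-05). The neuregulin receptor gene Erbb4 (-0.76, adjusted p = 1.76e-05) and Lrp1b (-0.48, adjusted p = 3.71e-05), which encodes a lipoprotein receptor relative, showed the same order. The exception was Auts2 (chr5:131437333-132543344, - strand), a chromatin-linked neurodevelopmental gene, with 237, 209, 279 and 295 CPM against 156, 142, 156 and 162 CPM (log2 difference 0.52, SE 0.064, adjusted p = 0.000175). In other nuclei 31 were lower and 1, Auts2 (0.39, adjusted p = 0.0302), higher, with a median of -0.59. With counts as deposited the list held 4.38, 4.18, 3.65 and 3.76% against 4.57, 5.37, 4.70 and 5.34% of UMIs in other nuclei. Cntnap2 did not pass in other nuclei with those counts (-0.15, adjusted p = 0.725). Auts2 did not pass there without any 1 of the 8 libraries (adjusted p from 0.0562 to 0.118). The lower count rests on 2 pairs: without a BCAS library 1 or 2 were called lower, and without a BCAS+TBI library 4 or 6, while the median stayed between -0.62 and -0.57.

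The same order held across all genes when they were divided by their start-to-end length in the GENCODE M21 annotation (GRCm38), with which 22655 of the 22677 genes could be matched by identifier. In neurons the median log2 difference was 0.48 for genes under 10 kb, 0.14 for 10 to 30 kb, -0.17 for 30 to 100 kb, -0.38 for 100 to 300 kb and -0.51 over 300 kb. Among other nuclei they were 0.46, 0.14, -0.14, -0.35 and -0.48. In neurons each of the 4 groups gave this order on its own, from 0.38 to 0.49 under 10 kb and from -0.57 to -0.44 over 300 kb, with 0.38 and -0.51 in the TBI pair. The control pair of other nuclei gave -0.22 over 300 kb, not below its -0.24 for 100 to 300 kb. Of 609 genes over 300 kb, 512 (84.1%) were lower in low-depth neurons and 28 higher, beside the 28.2% and 32.0% of all genes. These genes held 27.7% to 29.8% of neuronal UMIs in the low-depth and 36.2% to 37.3% in the high-depth libraries. Among protein-coding genes that overlap no gene on the other strand the medians ran from 0.52 to -0.50. With plain totals the bin of 30 to 100 kb in neurons turned positive (0.025) and the ends kept their signs (0.67 and -0.31). Genes are not independent replicates, so these medians carry no test.

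**Figure D3:**
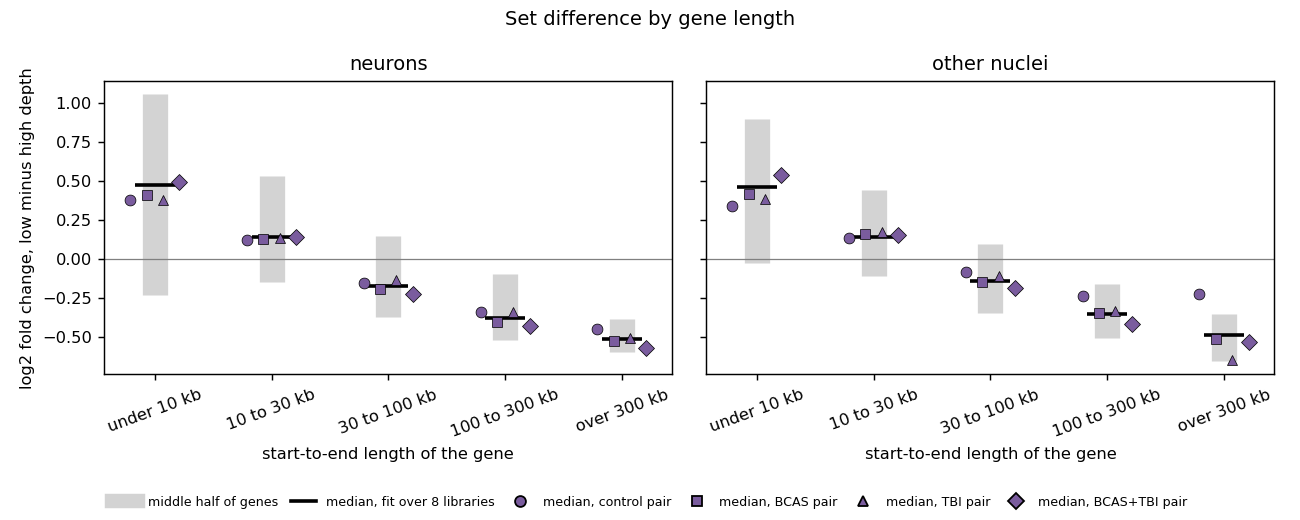
Log2 difference between low-depth and high-depth libraries by start-to-end gene length, in neurons (left) and other nuclei (right): grey bars, interquartile range of the genes; black lines, median of the fit over 8 libraries; symbols, median within each surgical group. Medians descend from 0.48 under 10 kb to -0.51 over 300 kb in neurons and from 0.46 to -0.48 in other nuclei.

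The remaining lists were mixed in neurons, where 32.0% of all genes tested were called higher and 28.2% lower in the low-depth set. Of 17 glycolytic enzyme genes, 9 were higher in low-depth neurons, among them Gapdh (73.6, 72.5, 71.3 and 91.4 CPM against 33.0, 34.0, 32.2 and 32.9 CPM; log2 difference 1.02, SE 0.076, adjusted p = 2.19e-05) and the mutase gene Pgam1 (1.10, adjusted p = 3.07e-05). Another 3 were lower, among them the phosphofructokinase gene Pfkp, which spans 69.0 kb (-0.55, adjusted p = 2.38e-05). Of the 12 messengers known to travel into dendrites, 0 were higher and 8 lower (median -0.38). Map2 (267 kb), a microtubule protein of dendrites, had 583, 563, 555 and 534 CPM against 700.1, 689, 724 and 708 CPM (log2 difference -0.54, SE 0.044, adjusted p = 2.66e-05), and the postsynaptic scaffold gene Shank3 differed by -0.48, adjusted p = 0.000204 (log2). With plain totals 2 of the 12 were higher and 7 lower. Of 10 heat shock genes 9 were higher and 0 lower (median 0.70), including the endoplasmic reticulum chaperone gene Hspa5 (0.68, adjusted p = 0.00117) and Hsp90aa1 (0.71, adjusted p = 0.000314). Of 38 proteasome genes 26 were higher and 5 lower (median 0.34), and of 16 immediate early genes 7 were higher and 0 lower (median 0.36). Without BCAS 1 or BCAS 2, 2 or 3 immediate early genes were lower, and without either BCAS+TBI library 1 heat shock gene was. The 38 splicing and speckle genes divided into 14 higher and 11 lower (median 0.089), and into 25 and 4 with plain totals. The shares of splicing and immediate early genes called higher lie near that of all genes, so nothing is read from those counts.

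In other nuclei 15.9% of all genes tested were called higher and 12.2% lower, and the counts of these lists are read against those shares. Of the genes tested, 7 and 0 of 16 glycolytic, 0 and 3 of 12 dendrite-localized, 5 and 0 of 8 heat shock, 21 and 1 of 37 proteasome, 2 and 0 of 13 immediate early and 11 and 2 of 38 splicing genes were higher and lower in the low-depth set. The share of immediate early genes called higher lies near the background. The medians of the lists there were 0.38, -0.37, 0.56, 0.49, 0.30 and 0.15. Without a BCAS or a BCAS+TBI library 4 glycolytic, 1 or 2 heat shock, 8 or 9 proteasome, 1 immediate early and 3 or 4 splicing genes were higher there, and 1 dendrite-localized, 0 proteasome and 0 splicing genes lower. Without a control library 1 splicing gene was lower.

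**Figure D4:**
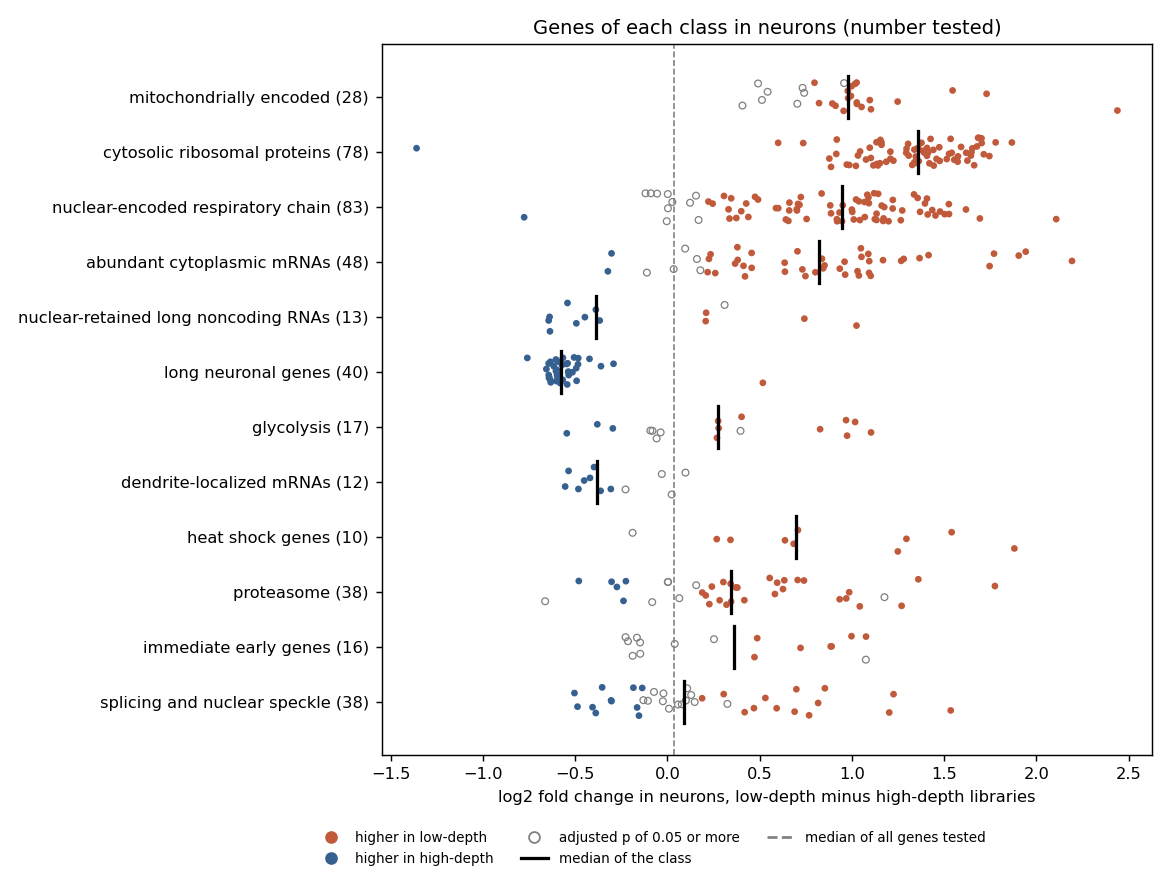
Log2 difference in neurons (x axis) of every tested gene of 12 lists (1 point per gene; red, higher in low-depth; blue, higher in high-depth; open, adjusted p of 0.05 or more), with the median of each list as a black line and that of all genes as a dashed line. Ribosomal, respiratory and abundant cytoplasmic messengers lie to the right, long neuronal genes to the left apart from Auts2, and the nuclear-retained RNAs on both sides.

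Genes annotated as antisense formed a further class, noticed after the values were seen and given as a description. They held 2.01, 1.91, 1.89 and 2.23% of UMIs in low-depth and 0.959, 0.944, 1.06 and 0.981% in high-depth neurons, with 1181 of 1726 higher, 75 lower and a median of 1.02. In other nuclei 405 of 758 were higher and 13 lower (median 1.01). Nrg3os lies wholly inside Nrg3, a neuregulin gene of 1104 kb on the opposite strand. Nrg3os had 696, 657, 673 and 808 CPM in low-depth and 211, 183, 264 and 212 CPM in high-depth neurons (log2 difference 1.51, SE 0.090, adjusted p = 1.76e-05), whereas Nrg3 had 4488, 4442, 4373 and 4109 CPM against 5767, 5820.4, 6126 and 5813 CPM (log2 difference -0.63, SE 0.044, adjusted p = 1.99e-05).

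This was not limited to genes annotated as antisense. Genes were grouped by how many UMIs the genes on the opposite strand that cover at least 50% of them had relative to their own (CPM of the same nuclei, not divided by length). In neurons the median log2 difference was -0.048 for genes with no overlap, -0.062 where less than 50% was covered, 0.31 where the opposite genes were lower than the gene itself, and 0.89, 1.16 and 1.30 where they were 1 to 10, 10 to 100 and over 100 times higher. The same groups gave, in other nuclei, -0.018, -0.084, 0.33, 0.83, 1.17 and 1.20. Among protein-coding genes alone the neuronal medians were 0.023 with no overlap and 0.91 in the last group, and those under 10 kb gave 0.52 and 1.17. In other nuclei protein-coding genes gave 0.013 with no overlap and 0.26, 0.50 and 0.38 in the next groups, and those under 10 kb stayed between 0.51 and 0.64 over the same 4 groups. Ube3a, the ubiquitin ligase gene of Angelman syndrome (chr7:59228750-59311536, + strand), is overlapped on the opposite strand over 31.5% of its length by 9330162G02Rik and at 1 end by Snhg14. It thus falls in the group with less than 50% covered, whose medians were -0.062 and -0.084, and is not an example of the later groups. Ube3a had 1045, 988, 994 and 1168 CPM against 366, 328, 418 and 376 CPM in neurons (log2 difference 1.30, SE 0.068, adjusted p = 1.76e-05). In other nuclei it had 307, 292, 216 and 333 CPM against 184, 199.6, 235 and 184 CPM (0.47, adjusted p = 0.0527; without either TBI library it passed, adjusted p = 0.00456 and 0.00506). The sources used here do not say whether counting used the strand, and without strand the reads of overlapping genes cannot be told apart.

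**Figure D5:**
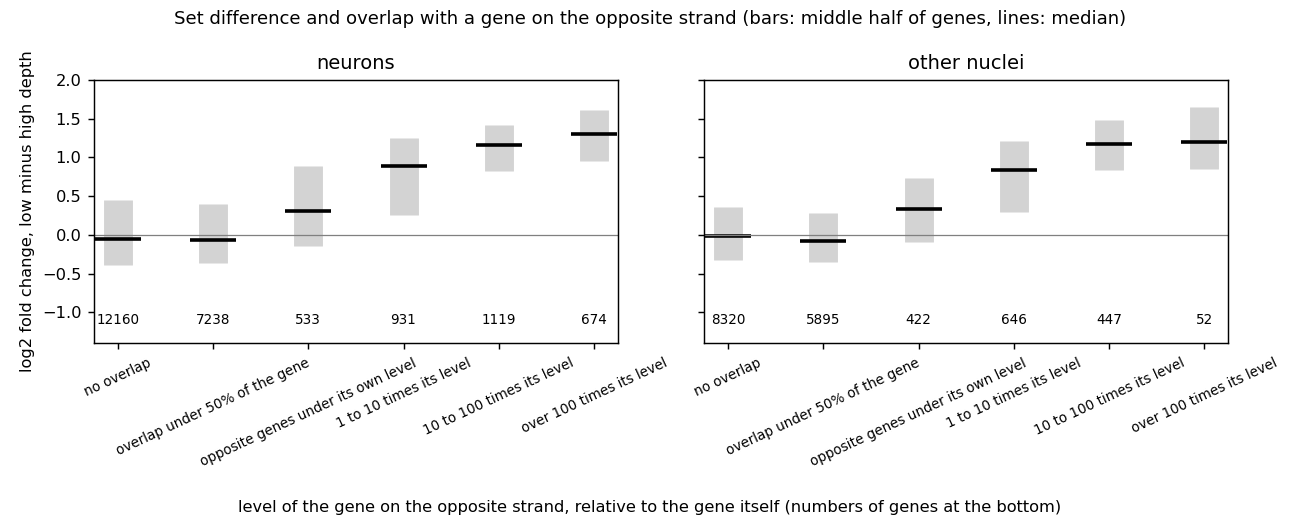
Log2 difference between low-depth and high-depth libraries for genes grouped by overlap with genes on the opposite strand and by the UMIs of those genes relative to their own, in neurons (left) and other nuclei (right): bars, interquartile range; lines, median; numbers of genes at the bottom. Medians run from -0.048 to 1.30 in neurons and from -0.018 to 1.20 in other nuclei.

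Taken by p-value over all genes in neurons, without predicted and mitochondrial genes, the leading genes were as follows. Among genes whose CPM did not overlap between the sets (12651 of 22677, 55.8%, with 40.3% higher in the low-depth and 15.5% in the high-depth set), those leading in the low-depth direction included Slc24a5, Cst3, Tmem158, Mrpl41, Acp1, Rplp0 and Eif1. Slc24a5, a cation exchanger gene (chr2:125068124-125088677, + strand), overlaps Myef2 on the other strand over 19.7% of its length. It had 214, 199, 201 and 229 CPM against 68.8, 60.7, 72.3 and 72.6 CPM (log2 difference 1.42, SE 0.054, adjusted p = 1.49e-05), while Myef2 had 138, 135, 136 and 122 CPM against 129.6, 129, 131 and 135 CPM (log2 difference -0.18 after TMM, 0.015 with plain totals, and not called without either BCAS+TBI library). Eif1, a factor of translation start, had 124, 121, 126 and 163 CPM against 40.1, 35.4, 39.7 and 37.8 CPM (log2 difference 1.60, SE 0.083, adjusted p = 1.76e-05). Mrpl41, a mitochondrial ribosomal protein gene of 0.982 kb (1.07), Tmem158 of 1.71 kb (1.37) and the phosphatase gene Acp1 of 18.3 kb (1.46) were also among them. Those leading in the high-depth direction included the sorting receptor gene Sorcs3, Adarb2 of the RNA editing family, the ephrin gene Efna5, the metalloproteinase gene Mmp16, the kinase gene Mapk10, Xkr6 and the chondroitin synthase gene Chsy3. Their log2 differences lay between -0.73 and -0.78 and their lengths between 214 kb and 599 kb. Adarb2 (chr13:8202866-8768747, + strand), which marks a class of interneurons, had 629, 648, 706 and 652 CPM against 966, 935, 972 and 947 CPM (log2 difference -0.74, SE 0.041, adjusted p = 1.76e-05).

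In other nuclei the CPM of 5034 of 15793 genes (31.9%) did not overlap, 19.3% higher in the low-depth and 12.6% in the high-depth set. Those leading in the low-depth direction included Cryab, C1qa, Cd9, Ctsl, Cst3, Wdr17 and an Atp5o entry that overlaps Itsn1 on the opposite strand over 78.9% of its length. Cryab, a small heat shock protein gene expressed by oligodendrocytes, had 65.5, 81.9, 83.1 and 95.7 CPM in low-depth and 20.7, 26.5, 23.99 and 25.8 CPM in high-depth nuclei (log2 difference 1.70, SE 0.12, adjusted p = 0.000317). C1qa, a complement gene of microglia, had 84.9, 72.1, 82.1 and 135 CPM against 25.8, 17.1, 15.6 and 23.9 CPM (log2 difference 2.12, SE 0.16, adjusted p = 0.000317). The lysosomal protease gene Ctsl (1.65, adjusted p = 0.000321) and the tetraspanin gene Cd9 (1.47, adjusted p = 0.000317) were alike in direction, and Cst3 (1.92) was among the leading genes in both kinds of nuclei. The 8 in the high-depth direction were Atp10a, Prkch, Rpl26, Dach1, Epha7, St8sia4, Ptprg and Mecom, all over 79.9 kb except St8sia4 at that length and Rpl26 at 5.41 kb. Atp10a, a phospholipid flippase gene, had 63.2, 50.7, 65.03 and 63.0 CPM against 158, 123, 167 and 132 CPM (log2 difference -1.30, SE 0.11, adjusted p = 0.000461), and Mecom, a transcription factor gene, 168, 163, 175 and 163 CPM against 354, 254, 347 and 265 CPM (log2 difference -0.89, SE 0.11, adjusted p = 0.00135). Without the mitochondrial filter neither passed (Atp10a -0.43, adjusted p = 0.061; Mecom -0.34, adjusted p = 0.104). At no more than 1% mitochondrial UMIs Mecom (-0.44, adjusted p = 0.0983) and Prkch (-0.74, adjusted p = 0.0558) did not pass, and in oligodendrocyte-marked nuclei Atp10a, Rpl26 and Epha7 did not (adjusted p from 0.0521 to 0.189). Since other nuclei mix cell types, a different mixture and a different level within a type cannot be told apart in these sums. Among the smaller number of nuclei with oligodendrocyte markers, an alternative chosen after seeing the data, ribosomal proteins held 0.809% against 0.287% and nuclear-retained RNAs 9.27% against 4.70% on average.

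Whether the sets differ by another amount in neurons than in other nuclei was tested in 1 model over both. Of 23297 genes, 244 (1.05%) passed, 224 (0.961%) shifted further to the low-depth side in neurons and 20 (0.0858%) in other nuclei. By list, 6 of 32 mitochondrially encoded, 8 of 78 ribosomal protein and 3 of 48 cytoplasmic genes passed, all further to the low-depth side in neurons, while 0 of 40 long neuronal genes and 0 of 13 nuclear-retained RNAs passed. All 5 endothelial markers, 3 of 5 mural markers, 2 of 4 ependymal markers and 2 of 4 haemoglobin genes passed in that direction. Slco1a4, a transporter of the blood-brain barrier, had 13.2, 11.6, 20.5 and 14.9 CPM in low-depth and 13.2, 10.2, 5.94 and 8.13 CPM in high-depth neurons. In other nuclei it had 269.6, 225, 322 and 225 CPM against 552, 412, 442 and 429.8 CPM (log2 difference of the differences 1.41, SE 0.15, adjusted p = 2.25e-05). The tight junction gene Cldn5 had 12.7, 10.2, 37.8 and 22.5 CPM against 7.64, 4.43, 4.49 and 3.96 CPM in neurons and 203, 185, 386 and 292 CPM against 275, 148, 161 and 158 CPM in other nuclei (log2 difference of the differences 1.30, SE 0.15, adjusted p = 4.36e-05). The part of these contrasts in other nuclei depends on the mitochondrial filter. Without it the difference there was -0.044 for Slco1a4 (adjusted p = 0.857; -0.86 with it) and 1.46 for Cldn5 (adjusted p = 0.0109; 0.46 with it), and the interaction was not fitted without it. The angiopoietin receptor gene Tek (1.76), the endothelial phosphatase gene Ptprb (1.12) and the zinc importer gene Slc39a10 (0.98) completed the 5 leading genes. In the other direction Wdr17 had 318, 309, 265 and 337 CPM against 229, 243, 221 and 237 CPM in neurons and 1412, 1241, 1438 and 1764 CPM against 646, 473, 508 and 612 CPM in other nuclei (log2 difference of the differences -1.09, SE 0.12, adjusted p = 2.56e-05). It was joined in that direction by Fam196a (-1.19), the sulfotransferase gene Chst9 (-1.52), the endoplasmic reticulum isomerase gene Ppib (-0.58) and the kinase gene Dclk1 (-0.66). With nuclei thinned to 1000 UMIs, Fam196a (-0.69, adjusted p = 0.129) and Ppib (-0.31, adjusted p = 0.19) did not pass. The number passing fell to 121 to 154 without either control library, either BCAS+TBI library, BCAS 1 or TBI 2, and was 236 or 247 without BCAS 2 or TBI 1.

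Markers of other cell types were read in neurons, where they should be near 0, and their part in the differences above was not tested. The counts below stand beside the 32.0% of all genes called higher in low-depth neurons. All 7 microglial markers were higher in low-depth neurons and summed to 0.0151% to 0.0186% of UMIs against 0.00522% to 0.00953%. C1qa had 15.6, 19.98, 17.02 and 25.7 CPM against 4.44, 3.70, 1.69 and 4.20 CPM in neurons (log2 difference 2.31, SE 0.19, adjusted p = 2.89e-05). P2ry12, a microglial receptor gene that lies wholly within Med12l on the opposite strand, had 44.7, 48.2, 42.0 and 52.5 CPM against 16.4, 19.8, 14.6 and 17.3 CPM (log2 difference 1.26, SE 0.074, adjusted p = 1.76e-05). Oligodendrocyte markers (4 of 6 higher, 0.0798% to 0.0952% against 0.0204% to 0.0717%) included the myelin gene Mal at 74.6, 92.6, 86.4 and 96.1 CPM against 30.6, 37.0, 13.1 and 33.3 CPM (log2 difference 1.49, SE 0.20, adjusted p = 0.000291). Endothelial markers (2 of 5 higher) summed to 0.00575% to 0.0136% against 0.00270% to 0.00532%, and astrocyte markers (2 of 6 higher, 1 lower) to 0.0515% to 0.0623% against 0.0385% to 0.0677%, which overlap, and both of these counts are near the share of all genes. The counts higher for mural, fibroblast, oligodendrocyte precursor, choroid plexus and ependymal markers were 4 of 5, 1 of 5, 3 of 5, 1 of 4 and 2 of 4, with 1 precursor marker lower. With 1 library left out in turn, the count higher ranged over 6 to 7 for microglia, 2 to 3 for endothelium and 2 to 4 for oligodendrocytes (lowest without control 1). It ranged over 0 to 3 for astrocytes and 1 to 5 for mural cells (both lowest without a BCAS+TBI library). For the others it was 1 to 3 for fibroblasts (highest without a control library) and 1 to 3 for ependyma (lowest without a control or BCAS+TBI library). No precursor marker was lower without a control or BCAS library or BCAS+TBI 2. In other nuclei microglial markers summed to 0.0572% to 0.0762% against 0.0282% to 0.0423% (6 of 7 higher, beside 15.9% of all genes) and oligodendrocyte markers to 0.414% to 0.485% against 0.184% to 0.383% (3 of 6 higher, 1 without BCAS+TBI 2). Endothelial markers there overlapped (0.107% to 0.172% against 0.137% to 0.195%) with 3 of 5 lower in the low-depth set and, without a control library, 2 higher.

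Haemoglobin, the product of red cells, was uneven. Its 4 genes summed to 0.00338, 0.0134, 0.0181 and 0.0423% of UMIs in low-depth and 0.00607, 0.00190, 0.00167 and 0.00143% in high-depth neurons, where control 1 lies below control 2 and the 3 other groups differ in the opposite sense. The beta-globin gene Hbb-bs had 15.01, 64.6, 107 and 235 CPM against 31.8, 8.61, 8.07 and 5.12 CPM (log2 difference 2.65, SE 0.91, adjusted p = 0.0318), and did not pass without any 1 library of the BCAS, TBI and BCAS+TBI groups (adjusted p from 0.0764 to 0.146). Of the 4 genes, 3 were called higher in neurons, 4 without either control library, 1 without a BCAS library, 2 without a TBI library and 0 without a BCAS+TBI library. In other nuclei 0 of 4 passed, and 4 of 4 without either control library.

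The inhibitory markers among the neuronal subtypes went in both directions. Of the excitatory markers, Neurod6 (3.44 kb), a transcription factor gene of excitatory neurons, had 32.8, 31.8, 33.2 and 41.0 CPM in low-depth and 20.6, 14.9, 18.4 and 19.3 CPM in high-depth neurons (log2 difference 0.73, SE 0.084, adjusted p = 0.000126). It was the 1 of 5 called higher, while 1 was lower and 3 did not pass (median -0.12). Of the inhibitory markers, Adarb2 (566 kb) was lower and the vesicular GABA transporter gene Slc32a1 (4.98 kb) was higher, at 43.8, 47.8, 43.6 and 38.6 CPM against 28.9, 25.9, 28.5 and 26.9 CPM (log2 difference 0.45, SE 0.070, adjusted p = 0.000589). These 2 genes were picked from the 5 with their values known, and no relation to length is read from them. Of the 5 inhibitory markers 4 were lower and 1 higher, and their sum did not overlap (0.0833% to 0.0933% against 0.115% to 0.119%). Most of that sum was Adarb2, whose CPM is given above, so the separation of the sum largely follows this gene. The summed excitatory markers overlapped between the sets (0.0390% to 0.0438% against 0.0358% to 0.0421%), as did the striatal ones (0.0601% to 0.0860% against 0.0841% to 0.0934%).

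The share of nuclei that pass the neuronal gate depends on depth, so each nucleus was thinned to 1000 UMIs, which left out 438 to 660 shallower nuclei per low-depth and 287 to 511 per high-depth library. Nuclei passing the gate then made up 54.0, 56.6, 48.4 and 54.6% in the low-depth and 57.3, 57.5, 66.9 and 61.1% in the high-depth libraries, which do not overlap (difference -7.30 points, p = 0.0286, exact two-sided permutation, n = 4 and 4, the smallest p of the 70 assignments). At 500 UMIs they made up 22.1% to 25.5% against 29.4% to 34.4% (difference -7.85 points, exact permutation p = 0.0286), and at 2000 UMIs the shares overlapped (difference 0.455 points, exact permutation p = 0.857). A different level of the 3 gate genes in neurons and a different share of neurons cannot be told apart here. Neurons held 23860780 to 25407215 of the 27074872 UMIs per library after thinning to the common total. Their share thus enters the totals that ranked the libraries, and the p-values for the share are not independent of that ranking. Nuclei marked as oligodendrocytes, which should lack the 3 genes, passed the gate in 0% to 2.27% at 500, 3.23% to 7.46% at 1000 and 16.8% to 46.3% at 2000 UMIs, so the gate separates kinds of nuclei less well at the last depth. By set, the share at 2000 UMIs was 28.3% to 46.3% in low-depth and 16.8% to 34.4% in high-depth libraries. Without thinning the difference was -5.38 points, a value that follows the depth that chose the sets and is given with no test. With libraries thinned to the common total, as for the gene tests, the difference was -1.86 points. The sets then overlapped (65.6% to 74.3% against 67.1% to 79.0%, exact permutation p = 0.6). The permutations of shares and gene numbers used all 70 assignments and, unlike the edgeR fits, took no account of the group. Swaps within the 4 groups are fewer, so their smallest p is larger, and they were not run. At 1000 UMIs neurons had a median of 705, 715, 708 and 704 genes in low-depth and 695, 688, 692 and 696 in high-depth libraries (exact permutation p = 0.0286, adjusted over both kinds 0.0571, n = 4 and 4). Other nuclei had 715, 724, 711 and 709 against 710.0, 708, 712 and 712 genes (exact permutation p = 0.343, n = 4 and 4). The gap in neurons is 15.2 genes, with every low-depth library above every high-depth one. At 500 UMIs it is 1.00 gene and the sets overlap (386 to 391 against 385 to 389, exact permutation p = 0.629), and at 2000 UMIs it is 54.0 genes (exact permutation p = 0.0286, adjusted 0.0571). Other nuclei at 2000 UMIs had 1256 to 1298 against 1233 to 1260 genes, a gap of 32.75 (exact permutation p = 0.0571, adjusted 0.0571). A gap in gene number at that depth is thus not particular to neurons.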

How the data were processed

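The deposited matrices, 1 for each library, hold UMI counts that were not normalized, and the file headers name Cell Ranger 7.0.0 as the authors' counting program; Seurat and the builds GRCm38 and mm10 are named in the submitters' processing notes. A barcode needed 500 UMIs, 300 genes and a mitochondrial share of 5% or less (4922 of 53390 failed). Counts were thinned without replacement to 27074872 UMIs per library, and summed per library over neurons and other nuclei. Doublets were kept, and an alternative removes the 6% of nuclei with most UMIs. edgeR 4.0.16 in R 4.3.3 (filterByExpr with a minimum count of 10, TMM, quasi-likelihood, two-sided, terms for group and set) was fitted on all genes, with Benjamini-Hochberg adjustment, and the interaction with terms for library, kind of nucleus and kind by set. On simulated counts for the neuronal comparison, tested over 22128 genes, 84.7% of genes changed 2-fold and 45.5% changed 1.5-fold were recovered, with 6 false calls. For other nuclei (15329 genes) these shares were 68.4% and 16.8%, with 6 false calls, and for the interaction (21678 genes) 45.6% and 32.6%, with 2. Within each simulation every library had the same pooled profile, with no group effect and few genes changed. In that of the interaction both kinds of nuclei shared the profile. These figures describe that simpler setting and not data in which most genes differ.

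Sums held 23860780 to 25407215 UMIs per library in neurons and 1667657 to 3214092 in other nuclei. Counting error is small beside the spread of libraries: the widest 95% Wilson interval of a class share spanned 0.0255 points in neurons and 0.0808 points in other nuclei, and covers counting error only. Nothing in the labels says more of the replicates than biological replicate numbers, so p-values measure the spread between these libraries. Named genes are the 8 of smallest p-value in each direction whose CPM does not overlap between sets (5 for the interaction, without that condition), leaving out predicted and mitochondrial genes, and members of the lists, picked with their values known; some that meet these rules are not reported here. Ube3a, Nrg3, Nrg3os, Myef2, S100a8 and S100a9 and the grouping by strand and annotated type were chosen after values were seen. The sets, lists and tests were chosen with earlier results of these data known. Alternatives are given at the end. Gene lengths, strands and coordinates come from GENCODE M21 (GRCm38), matched by identifier for 54165 of 54232 features. The aligner's strand setting is not given in the sources used here.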

Additional observations from a re-analysis of the deposited data

Results flagged for a closer look

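In 14 of 242 sets of 4 values, 1 library lay far from the other 3 by Dixon's ratio, and chance alone marks about 1 set in 20. Control 2 stood apart in 6 of them. The summed share of haemoglobin in neurons of the high-depth set was 0.00607% of UMIs in control 2 and 0.00143 to 0.00190% of UMIs in the other 3. Rplp1 in neurons of the high-depth set was 41.5 CPM in control 2 and 27.5 to 28.7 CPM in the other 3. Hbb-bs in neurons of the high-depth set was 31.8 CPM in control 2 and 5.12 to 8.61 CPM in the other 3. Cldn5 in neurons of the high-depth set was 7.64 CPM in control 2 and 3.96 to 4.49 CPM in the other 3. Fth1 in other nuclei of the high-depth set was 410.0 CPM in control 2 and 255 to 265 CPM in the other 3. Cldn5 in other nuclei of the high-depth set was 275 CPM in control 2 and 148 to 161 CPM in the other 3. BCAS+TBI 2 stood apart in 4. Eif1 in neurons of the low-depth set was 163 CPM in BCAS+TBI 2 and 121 to 126 CPM in the other 3. Xkr6 in neurons of the low-depth set was 157 CPM in BCAS+TBI 2 and 176 to 177 CPM in the other 3. Gapdh in neurons of the low-depth set was 91.4 CPM in BCAS+TBI 2 and 71.3 to 73.6 CPM in the other 3. Neurod6 in neurons of the low-depth set was 41.0 CPM in BCAS+TBI 2 and 31.8 to 33.2 CPM in the other 3. BCAS 1 stood apart in 3. The summed share of splicing and nuclear speckle in other nuclei of the low-depth set was 0.804% of UMIs in BCAS 1 and 0.844 to 0.851% of UMIs in the other 3. Atp10a in other nuclei of the low-depth set was 50.7 CPM in BCAS 1 and 63.0 to 65.03 CPM in the other 3. S100a9 in other nuclei of the low-depth set was 93.9 CPM in BCAS 1 and 0.381 to 13.7 CPM in the other 3. The last was TBI 2. Nrg3 in neurons of the high-depth set was 6126 CPM in TBI 2 and 5767 to 5820.4 CPM in the other 3. S100a9, a neutrophil gene, had 0.381, 93.9, 13.7 and 11.0 CPM in low-depth and 0, 2.04, 0.600 and 0 CPM in high-depth other nuclei, with control 1 near the high-depth libraries. Its partner S100a8 had 0.381, 39.1, 5.29 and 7.77 CPM against 0, 1.22, 0.600 and 0 CPM.

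The set difference itself differed between neurons and other nuclei for 244 genes by the interaction test in edgeR. Its log2 size was 1.41 for Slco1a4, 1.12 for Ptprb, 0.98 for Slc39a10, 1.76 for Tek, 1.30 for Cldn5, -1.19 for Fam196a, -1.09 for Wdr17, -1.52 for Chst9, -0.58 for Ppib, -0.66 for Dclk1, positive where the difference lay further to the low-depth side in neurons.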

How the results depend on the processing

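The count of genes called in neurons (13660) was within 1.5 times under every alternative run except nuclei thinned to 1000 UMIs (7673) and excitatory-marked nuclei (9023), and was 11068 to 13200.0 with 1 library left out. In other nuclei (4445) it was 2206 with DESeq2, 2413 at no more than 1% mitochondrial UMIs and 1612 in oligodendrocyte-marked nuclei, and 1457 to 4216 with 1 library left out, lowest without BCAS 1, BCAS 2, BCAS+TBI 2 or BCAS+TBI 1. Since a group with 1 library says nothing of the sets, leaving out either library of a group removes that group's comparison. The interaction (244) gave 161 at 1000 UMIs and 121 to 247 with 1 library left out. With the replicate number as a block in place of the group, 13361 genes passed in neurons and 4715 in other nuclei; the numbers do not pair the surgical groups, because the low-depth set holds replicate 1 of 3 groups and replicate 2 of BCAS+TBI. Differences of class shares between the set means kept their sign under every alternative run. Without the mitochondrial filter they were 0.700 points for mitochondrial transcripts in neurons and, in other nuclei, 2.45 for mitochondrial, 1.21 for ribosomal, 0.376 for respiratory, 0.710 for cytoplasmic and 3.00 for nuclear-retained transcripts. At no more than 1% mitochondrial UMIs they were 0.166 in neurons and 0.134, 0.375, 0.204 and 0.340 in other nuclei, and -2.46 for long genes there. At 1000 UMIs per nucleus they were 0.386, 0.212 and 0.374 for ribosomal, respiratory and cytoplasmic transcripts in other nuclei. Nuclear-retained RNAs gave 4.57 in oligodendrocyte-marked nuclei, and long genes -1.003 with counts as deposited. The share of nuclei passing the neuronal gate was 0.455 points higher in the low-depth set at 2000 UMIs and differed by -5.38 with counts as deposited. With 1 library left out it differed by -8.43 to -5.23, where no exact p can pass. Genes per other nucleus gave -1.75 at 500 UMIs. Medians by length, from the shortest to the longest bin, were 0.67, 0.34, 0.025, -0.18, -0.31 with plain totals in neurons, and by exon length (under 1, 1 to 2, 2 to 4, 4 to 8 and over 8 kb) 0.89, 0.55, 0.14, -0.11, -0.34 in neurons and 0.97, 0.59, 0.16, -0.093, -0.30 in other nuclei. For 10 to 30 kb they were 0.12 with RLE, 0.17 in excitatory-marked nuclei and 0.088 in protein-coding genes without overlap in neurons, and 0.18 with plain totals, 0.22 in oligodendrocyte-marked nuclei and 0.11 in protein-coding genes without overlap in other nuclei; under 10 kb oligodendrocyte-marked nuclei gave 0.79. Neat1 in neurons ranged from -0.13 to 0.49 with 1 library left out. Of 2298 values of named genes under the alternatives, 2201 kept direction and call; those that changed sign were Cldn5 in other nuclei (-0.14 with nuclei thinned to 1000 UMIs); Meg3 in other nuclei (0.16 with counts as deposited); Myef2 in neurons (0.015 with totals without normalization factors); Neat1 in neurons (-0.12 with nuclei thinned to 1000 UMIs, -0.13 without TBI replicate 1, -0.13 without TBI replicate 2); Ube3a in other nuclei (-0.049 with stricter gate). Nuclei thinned to 1000 UMIs leave fewer UMIs to test in neurons, and marked nuclei do in both kinds. In other nuclei thinned to 1000 UMIs, every high-depth library held more UMIs than in the main run (TBI 2 2378000 against 1667657). Every low-depth library held fewer (TBI 1 2546000 against 3214092). More nuclei were then counted as other in every library (control 1 2326 against 1723). The cause of the changes was not tested. The marked nuclei, plain totals for the counts of calls, and the restriction to protein-coding genes were chosen after seeing the data.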
